A study of Mus musculus with 36 samples.

Results

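The genes described here encode utrophin (Utrn), dystrophin (Dmd), dystroglycan (Dag1), alpha-dystrobrevin (Dtna) and the alpha, beta, delta, epsilon and zeta sarcoglycans (Sgca, Sgcb, Sgcd, Sgce and Sgcz), 9 of the 22350 protein-coding genes annotated on chromosomes 1 to 19 and X of mm9 in GENCODE M1. A peak was counted for a gene when its centre lay in the gene body or within 100 kb of it, and this window is meant wherever a window is named. The windows held 12 of 3254 peaks. The genes were chosen by a rule drawn up with their peaks and scores already known, so their counts and scores are given as a description and carry no test.

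PAX6 binding was mapped by ChIP-seq in enteric precursor cells (EPCs), the neural crest-derived cells of the gut that grow in culture as neurosphere-like bodies (NLBs). The NLBs were primary cultures of ganglionic bowel from 7-day-old CD-1 mice, and the labels name no genetic change or treatment in any group. The PAX6 antibody was used for 4 libraries in pool 1 and 6 each in pools 2 and 3, every one with its input library, and mouse IgG, the negative control, for 4 libraries, all labelled pool 1. Libraries had been merged before peaks were called, leaving 1 list per pool and 1 for IgG, so neither the depth behind each list nor the spread between libraries is known here and replication rests on the 3 pools. NLBs hold stem cells and their progeny, and the lists hold no expression values against which the cell type could be checked.

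Dystrophin and utrophin are large, closely related proteins that tie the actin cytoskeleton to dystroglycan in the plasma membrane, and dystroglycan in turn binds laminin in the basement membrane. The sarcoglycans form a membrane subcomplex beside dystroglycan, and dystrobrevin and the syntrophins bind on the inner side. The complex is best known from muscle, where its loss causes muscular dystrophy, but the smooth muscle of the gut wall, nerve and glia also carry forms of it, with utrophin and short dystrophin products prominent outside skeletal muscle. PAX6 is a transcription factor that binds DNA through a paired domain and a homeodomain.

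The sequences under the peaks are shown first because simple repeats were what most of them had in common. They are the plus strand of mm9, 5′ to 3′, either the whole peak or the central 300 bases of a longer one, and capitals mark runs of at least 20 bases made only of A and C, or only of G and T. Runs were measured within the bases shown, so a longer run cut by the edge can stand in lower case. The first pair are the PAX6 peaks of Utrn, both from pool 2, and the third is the IgG peak of the same gene.
Utrn, pool 2, higher score, chr10:12408754-12409053: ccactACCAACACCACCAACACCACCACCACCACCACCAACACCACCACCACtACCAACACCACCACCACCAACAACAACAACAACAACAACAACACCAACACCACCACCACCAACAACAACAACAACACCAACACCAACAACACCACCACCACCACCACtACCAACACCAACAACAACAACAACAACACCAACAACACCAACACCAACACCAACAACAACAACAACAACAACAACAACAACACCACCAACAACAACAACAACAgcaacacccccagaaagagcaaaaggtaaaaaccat
Utrn, pool 2, lower score, chr10:12175026-12175229: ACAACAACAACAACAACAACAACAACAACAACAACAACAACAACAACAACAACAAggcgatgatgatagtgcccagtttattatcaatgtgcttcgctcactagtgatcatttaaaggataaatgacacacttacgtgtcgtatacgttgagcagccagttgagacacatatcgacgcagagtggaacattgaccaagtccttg
Utrn, IgG, chr10:12442725-12443024: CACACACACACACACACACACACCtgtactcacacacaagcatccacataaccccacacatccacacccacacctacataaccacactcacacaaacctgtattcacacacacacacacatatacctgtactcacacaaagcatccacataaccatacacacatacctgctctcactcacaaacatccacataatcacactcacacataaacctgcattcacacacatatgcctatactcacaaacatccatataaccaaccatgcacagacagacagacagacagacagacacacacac

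The higher scored Utrn peak was an array of AAC and ACC units, and capitals cover 85.7% of the bases shown. The lower scored one opened with a perfect AAC repeat of 55 bases, which reached the edge of the peak, and the rest was not repetitive. The IgG peak held CA repeats instead, and no AAC repeat of 20 bases or more. The next pair are a PAX6 peak of Dmd, from pool 1, and that of the Sgca window, from pool 3. They show the range among the remaining genes, from a sequence with a single short CA repeat to one made almost wholly of G and T.
Dmd, pool 1, 5′ part of the gene, chrX:80541428-80541727: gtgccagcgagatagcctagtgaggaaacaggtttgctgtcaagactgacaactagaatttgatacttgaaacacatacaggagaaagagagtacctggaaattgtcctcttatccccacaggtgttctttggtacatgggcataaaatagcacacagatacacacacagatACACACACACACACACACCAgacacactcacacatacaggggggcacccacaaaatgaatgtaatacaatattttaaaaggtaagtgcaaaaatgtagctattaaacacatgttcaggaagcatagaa
Sgca window, pool 3, chr11:94921648-94921947: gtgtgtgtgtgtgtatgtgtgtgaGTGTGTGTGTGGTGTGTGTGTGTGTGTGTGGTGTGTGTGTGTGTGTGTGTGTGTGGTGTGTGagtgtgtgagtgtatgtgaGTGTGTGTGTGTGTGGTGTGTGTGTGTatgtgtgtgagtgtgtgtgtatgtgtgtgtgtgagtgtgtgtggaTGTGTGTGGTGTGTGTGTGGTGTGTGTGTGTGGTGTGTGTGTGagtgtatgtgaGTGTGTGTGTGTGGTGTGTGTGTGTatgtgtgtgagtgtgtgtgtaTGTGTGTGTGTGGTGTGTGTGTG

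PAX6 peaks were found in the windows of 6 of the 9 genes, and the 9 peaks came from different pools for different genes. Pool 1 had 2 of its 491 peaks there, both in Dmd. Pool 2 had 5 of its 1032 peaks there, with 2 in Utrn, 2 in the Dtna window and 1 in the Sgcb window. Pool 3 had 2 of its 724 peaks there, 1 each in the Dag1 and Sgca windows. IgG had 3 of its 1007 peaks there, 1 each for Utrn, Sgcb and Sgcd. Sgce and Sgcz had no peak in any list. No gene of the 9 had peaks from more than 1 pool, none of the 9 PAX6 peaks overlapped a peak of another list, and the nearest peak of another pool was at least 403 kb away. How often the same holds over all genes and all PAX6 peaks is not given here, so nothing is read from these counts. Without pool 2, 4 PAX6 peaks in 3 genes were left. Of all coding genes, 4.25% had a pool 1 peak in the window, 8.08% a pool 2 peak, 6.84% a pool 3 peak and 8.63% an IgG peak, and 17.5% had a PAX6 peak of any pool.

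**Figure D1:**
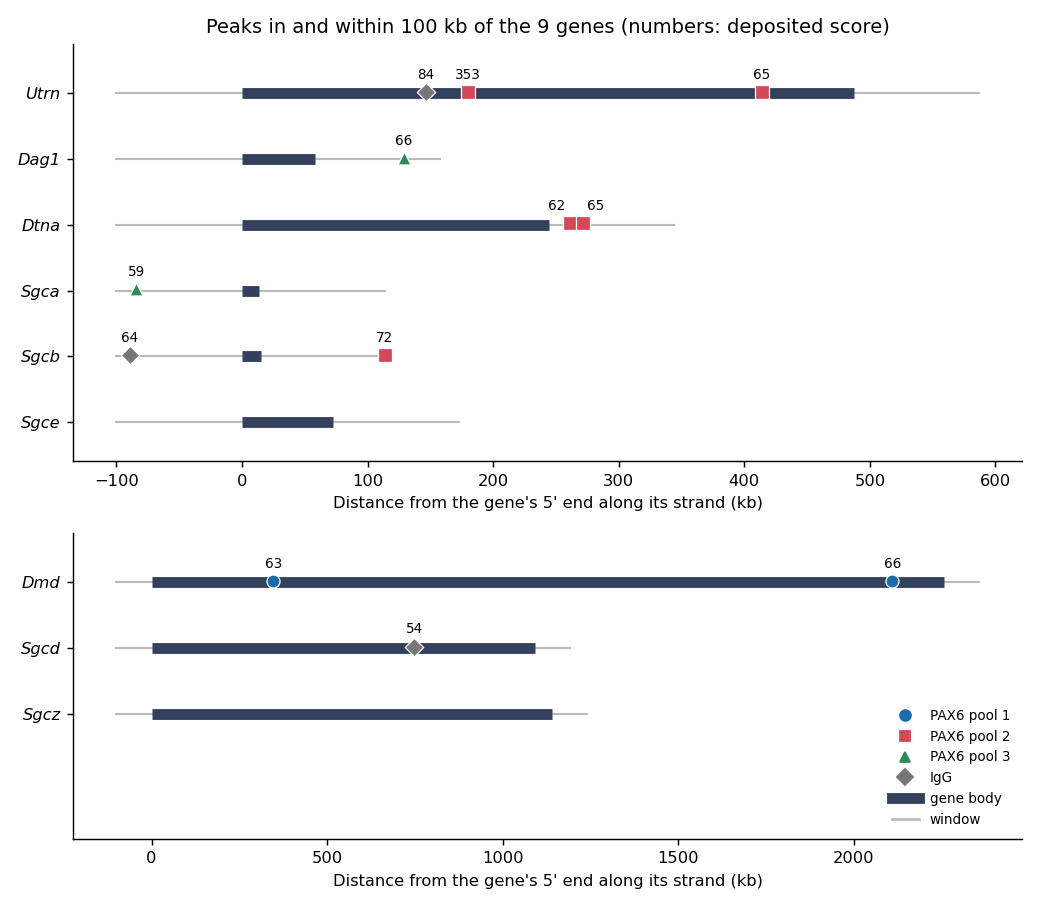
Position of the 12 peaks along the 9 genes, with the distance from the 5′ end of the annotated gene in kb on the x axis, a thick bar for the gene body and a thin line for the window of 100 kb on either side. Markers show the list of each peak and the number above a marker is its rounded score. The peaks of Utrn, Dmd and Sgcd lay in the gene body and those of Dag1, Dtna, Sgca and Sgcb lay outside it.

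The score of a peak is the authors' MACS p-value as its base-10 logarithm multiplied by 10 with the sign reversed, so higher is stronger, and because it depends on depth it was ranked only within a list. Utrn, the autosomal relative of dystrophin, held the strongest of the 12 peaks. The gene spans 487 kb on the minus strand (chr10:12101986-12589163, ENSMUSG00000019820.8). Its higher scored peak, at chr10:12408648-12409158 with 511 bp, had a score of 352.61 and was number 2 of the 1032 peaks of pool 2. It lay in intron 26 of 73 of the full-length transcript Utrn-202, 423 bp from the nearest exon. The start site of that transcript was 172.6 kb away and that of the shorter Utrn-201 was 74.5 kb away. The lower scored peak, at chr10:12175026-12175229 with 204 bp, had a score of 65.39 and was number 715 of the list. It covered 69 bp of exon 60, all coding, with its centre in intron 60, and the nearest start site of Utrn was 159 kb away. Both peaks of pool 2 were thus far from every annotated coding start of the gene, and only the first stood in the upper part of its list. The IgG peak of Utrn, at chr10:12442587-12443162, had a score of 83.93 and was number 116 of 1007. It lay in intron 16 and was 34.0 kb from the higher scored PAX6 peak, the closest that IgG came to any of the 9 PAX6 peaks. Pools 1 and 3 had no peak in the Utrn window.

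The repeats set the Utrn peaks apart from those of the other members. Runs of A and C of at least 30 bases covered 70.6% of the higher scored peak, in stretches of 104, 47, 107 and 103 bases parted by single bases. The stretch of 107 was the longest of the 131 such runs in the Utrn window. Perfect AAC repeats of at least 20 bases numbered 8 in the window, and 4 of them lay under the pool 2 peaks of the gene, 3 under the higher scored one and 1, of 56 bases and the longest in the window, under the lower scored one. The windows of the other members held AAC repeats too, 22 in Dmd, 11 in Sgcz, 7 in Sgcd, 5 in Sgca, 3 in Dtna, 2 in Sgce and 1 each in Dag1 and Sgcb, and none lay under a peak. None of the 92 CA or TG repeats of at least 20 bases in the Utrn window lay under a PAX6 peak of the gene, and 2 lay under its IgG peak.

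Compared with the other lists, AAC repeats were frequent in pool 2, though most of its peaks held none. In that list 11.7% of peaks (119) held one of at least 20 bases, against 1.43% in pool 1, 0.421% in pool 3, 0.398% for IgG and 0.300% of 500-bp bins of the genome. The median score in pool 2 was 115.84 for the peaks with such a repeat and 68.73 for those without, and 8 of the 10 highest scored peaks of the list held one. The other lists had few such peaks, 7 in pool 1, 3 in pool 3 and 4 for IgG. Medians with and without the repeat were 56.92 and 62.08 in pool 1, 111.43 and 105.41 in pool 3, and 73.06 and 65.59 for IgG. Among the 119 of pool 2, the Utrn peaks were number 2 and number 114 by score, so the higher scored one stood near the top and the lower scored one near the bottom of peaks of the same kind. The 32-base words of the higher scored peak were unique in the genome for 73.8% of positions, and 84.4% for the lower scored one, beside a median of 83.4% over pool 2. The search for AAC repeats was added after these sequences had been seen, and the part of the repeats in the score was not tested.

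**Figure D2:**
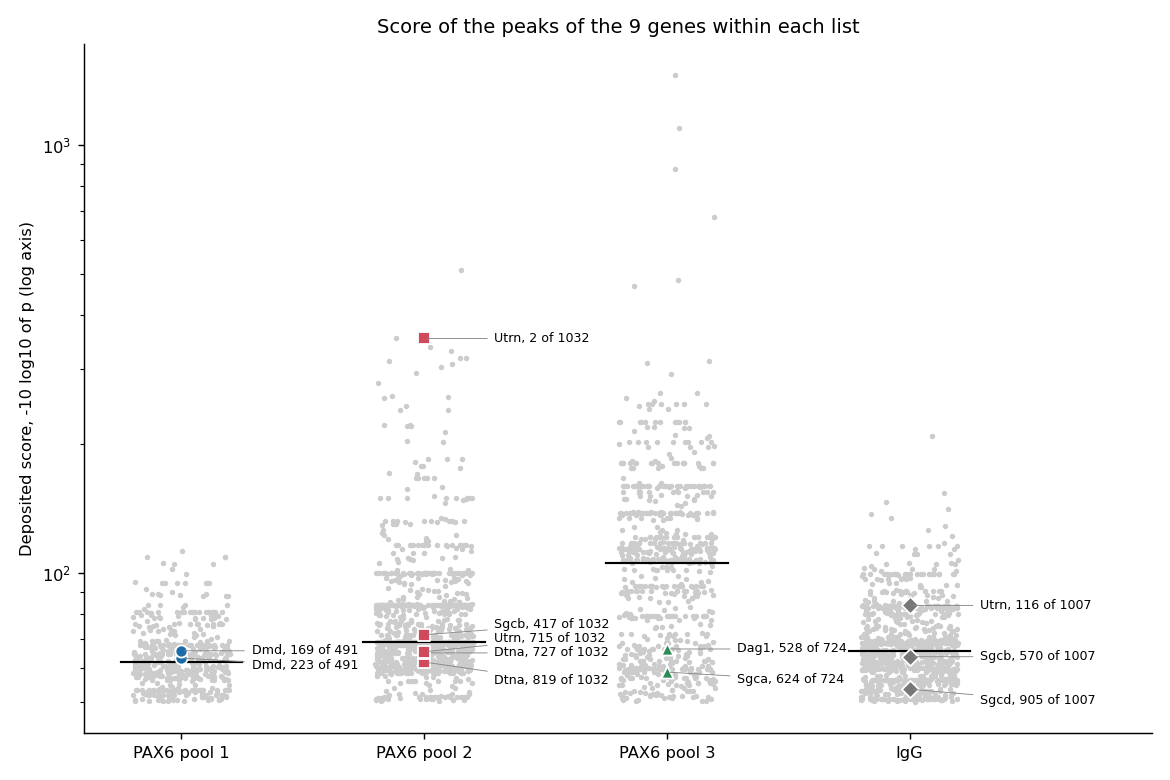
Deposited score of every peak (grey points) on a log axis for the 4 lists, with the median of the list as a black line and the peaks of the 9 genes as coloured markers labelled with gene and rank. The Utrn peak at 352.61 stands near the top of pool 2, and the other PAX6 peaks of the genes lie between 58.65 and 71.68.

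Dmd, the dystrophin gene, had 2 PAX6 peaks, both from pool 1 and both intronic, with middling scores. The gene is the longest of the 9, 2257 kb on the plus strand (chrX:80194209-82451480, ENSMUSG00000045103.10). The peak at chrX:80541345-80541810, of 466 bp, had a score of 63.26 and was number 223 of 491. It lay in intron 2 of 78, 49.8 kb from the nearest exon and 347 kb from the start of the full-length transcript. The other peak, towards the 3′ end of the gene, had a score of 65.77 and was number 169. It lay in intron 63, and 10.2 kb upstream of it was the internal start site of the short transcripts Dmd-003, Dmd-007 and Dmd-202. That was the shortest distance between a PAX6 peak and a coding start of its own gene among the 9 genes, and no peak lay within 10 kb of one. The 5′ peak held a CA repeat of 18 bases at most and 97.9% unique 32-base words. The 3′ peak held CA repeats of 23 and 25 bases and 75.8% unique words, beside a median of 83.7% over pool 1. Both scores were a little above the median of pool 1, 62.05. On chromosome X as a whole, pool 1 had 5.11% of its placed peaks, pool 2 2.75%, pool 3 0.421% and IgG 2.39%, for a chromosome with 6.31% of the bases. No list but pool 1 had a peak in the Dmd window, and the nearest IgG peak was 20629 kb from the 3′ peak.

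Dag1, which encodes both chains of dystroglycan, had 1 PAX6 peak, from pool 3 and outside the gene. Dag1 lies at chr9:108108286-108166255 (minus strand, 58.0 kb), and the peak at chr9:108037311-108037706 was 70.8 kb downstream of it, inside Bsn, the gene of the presynaptic protein bassoon. Its score was 66.40 and it was number 528 of 724, below the median of pool 3, 105.615. The nearest coding start site belonged to Apeh, 40.7 kb away, and the peak held a TG repeat of 31 bases. Bsn was 1 of 7 other coding genes that lay at least in part in the same window.

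Dtna, whose product binds dystrophin and the syntrophins, had 2 PAX6 peaks, both from pool 2 and both downstream of the gene. Dtna lies at chr18:23573916-23818215 (plus strand, 244 kb). The peak at chr18:23834595-23835124 was 16.6 kb beyond its end, with a score of 61.91 and number 819 of 1032, and held CA repeats of 31 and 40 bases. The peak at chr18:23845644-23846104 was 27.7 kb beyond the end, with a score of 65.02 and number 727. A CA repeat of 33 bases ran over its far edge, 16 bases of it inside the peak. The nearest coding start site was that of Dtna for the first, 73.9 kb away, and that of Mapre2 for the second, 64.96 kb away. Both scores were below the median of the list, 68.98.

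The sarcoglycan genes had 2 PAX6 peaks among the 5 of them, each far outside the gene and inside another one. Sgca, for alpha-sarcoglycan, lies at chr11:94824105-94837641 (minus strand, 13.5 kb). Its window held a pool 3 peak at chr11:94921523-94922072, 84.2 kb upstream, with a score of 58.65 and number 624 of 724. This peak lay in the integrin gene Itga3, 8.71 kb from its nearest coding start, and held TG repeats of 39 and 25 bases. It had 48.2% unique 32-base words, the lowest of the 12 peaks, beside a median of 66.7% over pool 3. Sgcb, for beta-sarcoglycan, lies at chr5:74023988-74038983 (minus strand, 14.996 kb). Its window held a pool 2 peak at chr5:73924954-73925296, 98.9 kb downstream in Dcun1d4, with a score of 71.68 and number 417 of 1032. It also held an IgG peak at chr5:74128066-74128510, 89.3 kb upstream, with a score of 63.70 and number 570 of 1007.

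Sgcd, Sgce and Sgcz had no PAX6 peak. Sgcd, for delta-sarcoglycan (chr11:46709755-47802471, minus strand, 1093 kb), had an IgG peak at chr11:47053670-47054174 in intron 2 of 7, with a score of 53.50 and number 905 of 1007. Sgce, the imprinted gene of epsilon-sarcoglycan, which takes the place of the alpha form in many tissues outside striated muscle (chr6:4624350-4697204, minus strand, 72.9 kb), and Sgcz, for zeta-sarcoglycan (chr8:38585352-39724562, minus strand, 1139 kb), had none. With a limit of 50 kb in place of 100 kb, 6 PAX6 peaks in 3 genes would have been counted, without those of Dag1, Sgca and Sgcb. The peak just inside the limit of 100 kb was the pool 2 peak of Sgcb at 98.9 kb. Just outside it were an IgG peak 159 kb from Sgcz and, for PAX6, a pool 3 peak 431 kb from Dtna with a score of 121.38.

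Gene length has to be set beside these counts, since long genes collect more peaks. The windows of the 9 genes covered 7.18 Mb, 0.272% of the 2639 Mb of placed chromosomes. Peaks spread evenly by length would have put 6.04 PAX6 peaks there, against 9 found, a ratio of 1.49. By pool the ratio was 1.503 in pool 1 (2 found, 1.33 by length), 1.81 in pool 2 (5 and 2.77) and 1.03 in pool 3 (2 and 1.94), and for IgG it was 1.10 (3 and 2.74). The mean of the 3 pools was 1.45 ± 0.389 (SD, n = 3). The share of coding genes with a PAX6 peak in the window was 15.2% for genes under 50 kb, 22.5% from 50 to 200 kb, 36.6% from 200 to 500 kb and 54% at 500 kb and over. Of the members, Sgca and Sgcb both had a peak in the first class, Dag1 but not Sgce in the second, Utrn and Dtna both in the third, and Dmd but not Sgcd or Sgcz in the fourth. With 2 or 3 genes in a class, chosen with these counts known, nothing further is read from this. Counted in the gene bodies alone, with 4 PAX6 peaks, the ratio to the genome was 0.884. With the full windows it was 0.705 at a score of 70 or more, with 2 PAX6 peaks, and 0.747 at 100 or more, with 1. The value above 1 thus held neither in the gene bodies nor at these limits. The same limit was set for all pools although scores depend on depth and the median score was 62.05, 68.98 and 105.615 in pools 1, 2 and 3. It thus weighs the pools unequally, and the ratios at these limits rest on very few peaks.

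**Figure D3:**
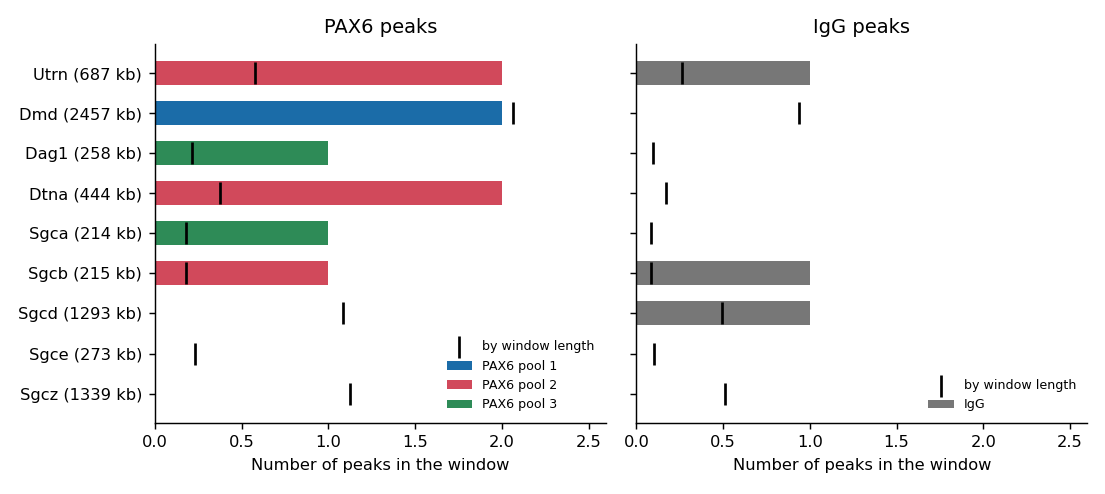
Number of PAX6 peaks (left, coloured by pool) and IgG peaks (right) in the window of each gene as bars, with the window length in kb beside the name. The black tick is the number that the window length alone gives. For Dmd 2 peaks stand beside 2.07 by length and for Utrn 2 beside 0.578.

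Gene by gene, Dmd had 2 PAX6 peaks, and among 13 coding genes with a window within 1.5 times its length the median was 2 and 61.5% had at least 2. Utrn also had 2, a number reached by 11.3% of 593 genes of like length, and Dtna had 2, reached by 5.53% of 2261. For Sgcd and Sgcz, with none, 57.9% and 59.6% of genes of like length had at least 1. For Sgce 16.5% did, and for the members with a single peak, Dag1, Sgca and Sgcb, 16.4%, 16.1% and 16.1%. These 4 sets held 21455, 21305, 20470 and 20504 genes, most of the 22350 coding genes, so they match length only loosely. By length class the share for Dag1 and Sgce was 22.5%.

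Repeats of CA or TG and runs of A and C, or of G and T, were common in the full lists. The AAC repeats of the Utrn peaks were of a less common kind, present in 5.81% of all PAX6 peaks. Repeats of CA or TG with at least 20 bases were present in 4 of the 9 PAX6 peaks, beside 55.2% of all PAX6 peaks, 62.6% of IgG peaks and 4.86% of 500-bp bins of the genome. A run of at least 30 bases of A and C, or of G and T, was present in 7 of the 9, beside 55.5% of all PAX6 peaks, 54.8% of IgG peaks and 7.15% of bins. Such repeats were common in the windows, and few lay under peaks. Of 716 CA or TG repeats in the 9 windows 10 lay under a peak, and the windows held 99.7 per Mb against 103 per Mb of the genome. For AAC repeats, 4 of 60 lay under a peak, all 4 in Utrn, and the windows held 8.36 per Mb against 6.01 per Mb of the genome. The windows without a peak held CA or TG repeats too, 35 in Sgce and 106 in Sgcz.

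Short letter patterns of the kind that paired and homeodomain proteins bind were searched on both strands as exact matches. TTCACGC, taken as the core of a paired-domain site, was in 0 of the 9 PAX6 peaks, in 0.496% of all PAX6 peaks, 0.795% of IgG peaks and 0.796% of 500-bp bins. TAATTA, taken as a homeodomain core, was in 0 of the 9, in 8.56% of all PAX6 peaks, 6.86% of IgG peaks and 16.9% of bins. The site of facing TAAT cores for a pair of homeodomains was in 0 of the 9, in 0.991% of all PAX6 peaks, 0.696% of IgG peaks and 1.75% of bins. These figures say only that the letters are not in these peaks.

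**Figure D4:**
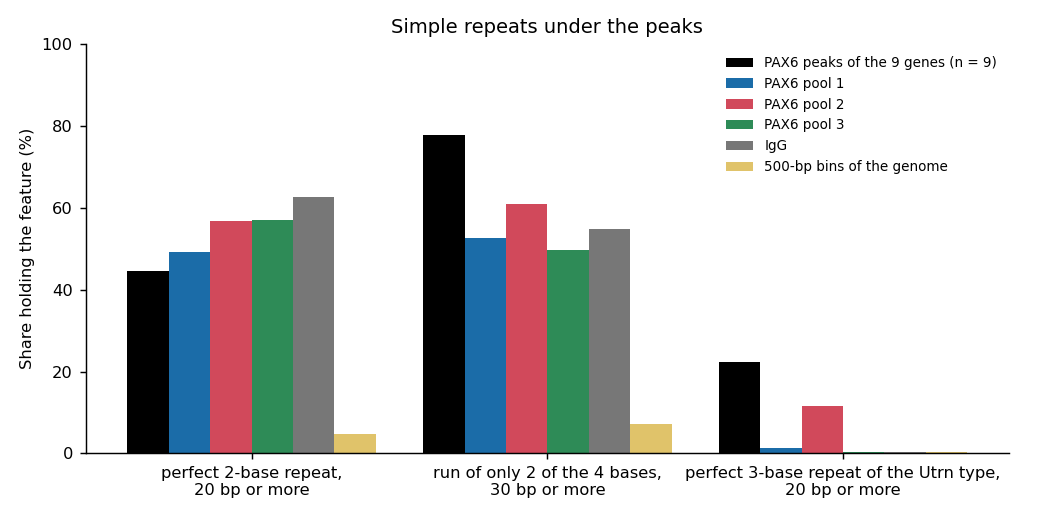
Share of peaks, in percent, that hold each of 3 kinds of simple repeat, for the 9 PAX6 peaks of the genes, for each full list and for 500-bp bins of the genome. The 2-base repeat is CA or TG, the run is of A and C or of G and T, and the 3-base repeat is AAC. The last stood at 11.7% in pool 2 and at 1.43% or less in the other lists, and the 2 peaks of the 9 genes that held it were those of Utrn.

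Other genes of the complex were taken as a list of 29. Of these, 6 had a PAX6 peak in the window (20.7%, beside 17.5% of all coding genes), with 9 peaks found and 9.31 by length, and 5 had an IgG peak, with 5 found and 4.22 by length. Sarcospan, Sspn, had none. Among the dystrobrevin, syntrophin and other partners 2 of 9 had a PAX6 peak, Cav3, the muscle caveolin, and Drp2, a dystrophin-related protein of Schwann cells. Among the ligands of dystroglycan 2 of 6 had one, the laminin chain gene Lama1 among them. Among the enzymes that place the sugars on dystroglycan 2 of 12 had one, Pomgnt2 among them. Lama1 had peaks from pools 2 and 3, about 100 kb apart, with scores of 58.44 and 58.65. The IgG peaks included those in the windows of Drp2, Lama1, Large and Pomk.

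The genes with the same counts in the 4 lists as a member, ordered by closeness of gene length, were named for the 3 members with the most PAX6 peaks. For Utrn (2 in pool 2 and 1 in IgG) there were 13 such genes, the closest in length being Grin2a (417 kb), Slc4a4 (353 kb) and Mdga2 (751 kb). For Dmd (2 in pool 1 alone) there were 10, with Cntnap2 (2241 kb), 1700112E06Rik (1036 kb) and Gm15155 (721 kb) first. For Dtna (2 in pool 2 alone) there were 67, with Dock9, Ttll5 and Pitpnc1 first, at 255.7, 229.1 and 262.8 kb.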

How the data were processed

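PAX6 ChIP, input and IgG libraries of EPCs were sequenced. Reads had been placed on mm9 by Bowtie, and MACS was then run by the authors on libraries merged by pool or for IgG (no version of either is given in the sources used here). In the deposited files stand the position of each peak and a score, the base-10 logarithm of the MACS p-value multiplied by 10 with the sign reversed, without counts. Because libraries were merged, the depth behind each list and the precision of a single peak are not known here, and MACS scores rise with depth. Reads mapped to repeats and any filter on them are not described in the sources used here.

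Starts were converted to 1-based positions, and peak centres were assigned to GENCODE M1 genes on chromosomes 1 to 19 and X with a window of 100 kb. Expected numbers are the window's share of the bases times the placed peaks of a list. Repeats were found on mm9 as perfect CA or TG repeats and AAC repeats of at least 20 bp and A and C runs of at least 30 bp. A 32-base word was unique if found once in mm9 on either strand. Overlap needed at least 1 bp. All 9 genes were named, with a list of 29 other genes and the genes of like counts. Results for some of these are not reported here. The members and lists were chosen with earlier results of these data known. The AAC repeats, the A and C runs and the density over bases that are not N were added after the data were seen. The counting and the repeat search were tested on simulated data. No test between groups was made. Alternatives covered the window, the score limit, IgG overlap, gene model, each pool left out and the repeat definition. Computations used Python 3.11.15, numpy 2.4.6, pandas 2.3.3, pysam 0.24.0, matplotlib 3.10.9 and samtools 1.23.1.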

Additional observations from a re-analysis of the deposited data

How the results depend on the processing

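No paired analysis was possible because no result comes from a test and each pool is 1 merged list. The window and the score limit changed the counts most. With the gene body alone, or the body plus 10 kb, 4 PAX6 peaks in 2 genes were left, Utrn and Dmd, and the ratio to the genome fell to 0.884 and 0.856. With 50 kb, 6 peaks in 3 genes were left and the ratio was 1.14. A score of 70 or more left 2 PAX6 peaks in 2 genes (ratio 0.705) and 1 IgG peak, and a score of 100 or more left 1 PAX6 peak in 1 gene, the higher scored peak of Utrn (ratio 0.747), and 0 IgG peaks. With each pool left out in turn, the PAX6 peaks ranged from 4 to 7, the genes with one from 3 to 5 and the ratio from 1.22 to 1.71, each lowest without pool 2, which leaves Utrn, Dtna and Sgcb with none. Counting any base of a peak, leaving out PAX6 peaks that overlap IgG and using the longest transcript kept 9 peaks in 6 genes, with a ratio of up to 1.58, and counting only bases that are not N gave 1.44. The share of PAX6 peaks with a CA or TG repeat ranged from 33.3% to 77.8% with minima of 30 and 12 bp. Genes within 1.5 times the window length, in place of length classes, had a PAX6 peak in 92.3% for Dmd, 28.6% for Dtna, 16.4% for Dag1, 16.5% for Sgce and 16.1% for Sgca and Sgcb. The depth behind each list is not known here, so a list without a peak does not show that a region was unbound.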
